A study of Homo sapiens with 4 samples.

Results

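The genes described here are the extracellular metalloproteases of the MMP, ADAM and ADAMTS families and their TIMP inhibitors, followed in H1 human embryonic stem cells made to leave pluripotency with or without blockade of Wnt secretion. Members were chosen by symbol alone, as every row named MMP, ADAM, ADAMTS or TIMP followed by a number and, in some, by A or B. This gave 73 of the 58365 rows of the expression table, namely 24 MMP, 26 ADAM, 19 ADAMTS and 4 TIMP genes. Of these, 66 were annotated as protein coding, and 7 (ADAM1A, ADAM1B, ADAM3A, ADAM3B, ADAM5, ADAM6 and MMP23A) were annotated as pseudogenes.

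RNA was sequenced from 4 libraries of H1, a long-established human embryonic stem cell line, at day 2 of hematopoietic differentiation. All cells received activin A at 40 ng/ml and BMP4 at 50 ng/ml as the labels state it, while the methods of the study exchange the amounts of these factors. The control group (DMSO, n = 2) had no inhibitor, and the treated group (IWP2, n = 2) received IWP2, which blocks Porcupine, the enzyme that attaches a lipid to Wnt proteins so that they can be secreted. The dose of IWP2 was not given in the sources used here. The cultures came from a single cell line and were not sorted, so each value is an average over all cells present. Nothing in the labels says that the replicates were separate cultures, and p-values then measure only the spread between these samples, which may be technical.

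Matrix metalloproteases (MMPs) are zinc enzymes that cut collagens, basement membrane proteins and other substrates, either after secretion or while anchored to the cell surface. ADAMs are membrane proteins of which some release the outer parts of growth factors, Notch and cadherins, whereas others have lost the catalytic site and act in adhesion. ADAMTS proteases are secreted, bind the matrix and cut proteoglycans such as versican and aggrecan or process procollagens. TIMPs are small secreted proteins that inhibit these enzymes, and TIMP2 in addition forms with MMP14 the complex through which pro-MMP2 is activated at the cell surface. In the embryo, cells that leave the epithelial epiblast to form mesoderm pass through a basement membrane, a step in which such proteases have been studied.

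The treatment was visible in the canonical Wnt targets. All 4 listed targets (AXIN2, LEF1, SP5 and NKD1) were lower with IWP2, as were all 6 nascent mesoderm genes, and SP5 fell from 53.2 and 47.0 FPKM (fragments per kilobase of transcript, scaled to the library's total) in the DMSO libraries to 0.379 and 0.363 in the IWP2 libraries. Of 5 pluripotency genes 3 were higher, SOX2 among them at 0.193 and 0.174 FPKM with DMSO against 35.6 and 36.1 with IWP2. APLNR, a receptor that marks early mesoderm, was at 380 and 512 FPKM against 2.97 and 2.39. The definitive endoderm list was also lower in sum (1775 and 2158 FPKM against 118.8 and 129.8, 3 of 4 genes called). Most of that sum with DMSO was CER1 (1612 and 2048 FPKM against 38.6 and 34.2), and SOX17 was not called (154.7 and 104.2 against 79.7 and 94.9). In the neural list OTX2 alone was tested and was lower (55.8 and 61.2 against 2.19 and 2.95). PAX6, SOX1 and ZIC1 had means under 1 FPKM, with SOX1 at or near 0 throughout, so the result for that list rests on OTX2. Markers of other cell types moved both ways, and those called with limma are given here after their values were seen. In the fibroblast list, which summed to 176.8 and 189.1 FPKM against 182.3 and 185.7 with DCN at or near 0 throughout, LUM was lower (3.10 and 2.80 against 0.108 and 0.178) and THY1 was higher (89.1 and 83.0 against 114 and 118.5). In the amnion or trophoblast list (62.6 and 61.8 against 74.7 and 80.4 in sum), KRT7 (0.833 and 0.864 against 5.85 and 8.22) and TFAP2A (16.5 and 12.01 against 34.0 and 34.2) were higher, and CDX2 (5.495 and 5.21 against 0.233 and 0.145) was lower. TEK was lower in the endothelial list (3.53 and 3.14 against 1.44 and 1.82, sums of 6.20 and 5.17 against 2.29 and 3.21), and RUNX1 was lower in the blood list (2.51 and 2.35 against 0.21 and 0.35, sums of 3.13 and 3.43 against 0.219 and 0.381), with PTPRC at 0 in 3 of the 4 libraries. In such bulk samples fewer cells of a type and less RNA per cell cannot be told apart. Low values fell on steps that correspond to about 17200000 to 21300000 fragments per library. Over genes with a mean of at least 1 FPKM, replicates differed in log2(FPKM + 1) by a median size, regardless of direction, of 0.15 for DMSO and 0.13 for IWP2. The part of these marker differences in the results that follow was not tested.

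Of the 73 genes, 36 had a mean of at least 1 FPKM over the 4 libraries and were tested, with limma on log2(FPKM + 1) over all 14022 genes past that minimum. With IWP2, 6 of the 36 were higher and 5 were lower at an adjusted p under 0.05, and 25 did not pass. Over all genes tested, 6.75% were called higher and 8.44% lower, 15.2% together, against 30.6% of the tested members. The median log2 change was -0.11 for the members and -0.02 for all genes, and the median size of the change regardless of direction was 0.46 for the members and 0.22 for all genes. The lower genes were MMP14, ADAM19, ADAMTS1, ADAMTS4 and ADAMTS9, and the higher ones were MMP17, MMP23B, MMP24, ADAM8, ADAMTS17 and TIMP2. Thus genes of each protease family stood on both sides. The 2 groups did not overlap for 30 of the 36 genes (83.3%), whereas this held for 59.8% of all genes tested. In 12 of the 36 both IWP2 values were the higher ones, as in 27.9% of all genes, and in 18 of the 36 the lower ones, as in 31.9% of all genes. The calls leaned on both IWP2 libraries: without IWP2 replicate 1 none of the 11 calls was kept, when limma called 318 genes in all, and without IWP2 replicate 2 only MMP14 and ADAM19 were kept, with 434 genes called in all. Without DMSO replicate 1 there were 7 of the 11 calls left, and without DMSO replicate 2 there were 9. With no minimum level, when 28917 genes were tested, MMP14 alone kept its call (adjusted p = 0.0492 with limma).

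**Figure D1:**
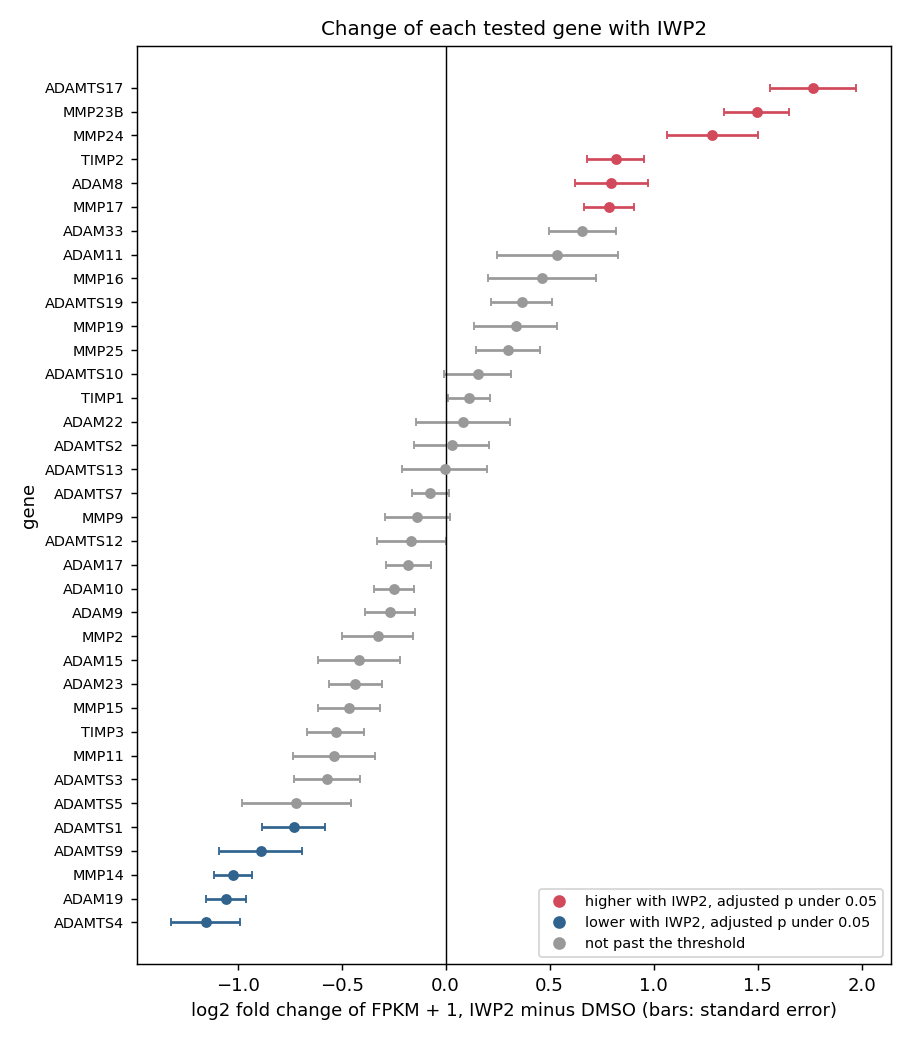
Each point is the log2 fold change of FPKM + 1 (IWP2 minus DMSO, horizontal axis) of 1 of the 36 tested genes, the bars are standard errors from limma, and colour marks the genes past an adjusted p of 0.05. The 5 genes called lower span -1.15 for ADAMTS4 to -0.73 for ADAMTS1, and the 6 called higher span 0.79 for MMP17 to 1.77 for ADAMTS17.

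The start regions of 4 called genes are shown. They are those of both lower genes with a RefSeq window and of ADAMTS17 and MMP24 among the higher ones (MMP23B has a near-identical copy, and the call of ADAM8 depended on every library), chosen after the values were seen and covering 250 bases before to 50 bases after the start of the gene in RefSeq (GRCh38.p14). That start lies 28 bases from the start of the gene's row in the expression table for MMP14, 36 for MMP24 and 30 for ADAMTS17, and at the same base for ADAM19. Capitals mark the GC box GGGCGG, to which Sp factors bind, and the E-box CACCTG, to which SNAI1 and related factors bind, each on either strand. The first pair of windows belongs to genes that were lower and the second pair to genes that were higher with IWP2.
MMP14, chr14:22836335-22836634, plus strand: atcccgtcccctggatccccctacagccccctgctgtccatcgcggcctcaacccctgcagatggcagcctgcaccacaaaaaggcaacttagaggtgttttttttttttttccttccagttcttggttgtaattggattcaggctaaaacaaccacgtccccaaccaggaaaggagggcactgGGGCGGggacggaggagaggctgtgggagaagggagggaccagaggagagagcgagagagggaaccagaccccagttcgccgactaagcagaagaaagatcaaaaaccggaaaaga
ADAM19, chr5:157575726-157576025, minus strand: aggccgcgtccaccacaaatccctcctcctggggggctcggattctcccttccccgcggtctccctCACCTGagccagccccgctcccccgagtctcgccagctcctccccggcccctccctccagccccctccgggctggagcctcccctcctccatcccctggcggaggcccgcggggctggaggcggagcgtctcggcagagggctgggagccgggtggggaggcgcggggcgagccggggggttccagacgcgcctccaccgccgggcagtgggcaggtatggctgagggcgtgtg
MMP24, chr20:35226440-35226739, plus strand: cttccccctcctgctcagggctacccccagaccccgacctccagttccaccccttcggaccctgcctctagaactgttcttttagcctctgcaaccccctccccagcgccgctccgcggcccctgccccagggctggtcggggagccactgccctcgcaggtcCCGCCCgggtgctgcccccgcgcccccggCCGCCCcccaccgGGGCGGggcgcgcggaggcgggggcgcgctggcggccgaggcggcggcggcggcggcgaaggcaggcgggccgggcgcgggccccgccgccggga
ADAMTS17, chr15:100341926-100342225, minus strand: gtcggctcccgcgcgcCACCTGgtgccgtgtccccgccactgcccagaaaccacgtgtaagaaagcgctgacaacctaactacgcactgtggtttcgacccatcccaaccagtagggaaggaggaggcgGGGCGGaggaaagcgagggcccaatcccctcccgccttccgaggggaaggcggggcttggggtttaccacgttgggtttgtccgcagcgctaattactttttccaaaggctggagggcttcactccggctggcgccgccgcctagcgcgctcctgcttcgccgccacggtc

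These windows differed in their letters without a split by direction. The window of MMP14 held 1 GC box and no E-box, that of ADAM19 held 1 E-box and no GC box, that of MMP24 held 3 GC boxes, and that of ADAMTS17 held 1 of each. Windows were found for 39 of the 73 members, including 6 of the 11 called ones (40 windows, since ADAMTS10 had a second start). The E-box was in 9 of the 40 windows (22.5%) and in 20.6% of all 35116 RefSeq windows of the same length, and the GC box was in 26 (65%) against 45% of all windows. The TCF/LEF letters CTTTGAT or CTTTGAA were in 2 of the 40 windows, neither of them of a tested gene, and in 6.86% of all windows. The TATA letters TATAAA were in 8 of the 40 windows (20%) and in 11.5% of all windows. Both strands were scanned, and matches of different motifs were allowed to overlap. A match is a run of letters and not a binding site, and the start used in these cells may be another one.

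MMP14, the membrane-anchored collagenase that activates pro-MMP2, was the most abundant of all members with DMSO and fell with IWP2, with a DMSO mean 2.04 times the IWP2 mean. It lies at chr14:22836557-22849027 (GRCh38) on the plus strand. Its level was 182.6 and 164.7 FPKM in the DMSO libraries and 87.0 and 82.8 FPKM in the IWP2 libraries, so every IWP2 value lay far below every DMSO value. The mean fell from 174 ± 12.7 to 84.9 ± 2.94 FPKM (SD, n = 2 each), a log2 change of -1.02 (SE 0.09, adjusted p = 0.0032 with limma). Without IWP2 replicate 1 the adjusted p was 0.052, and it lay between 0.0117 and 0.0474 with any other library left out.

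MMP2, the secreted gelatinase that MMP14 activates, did not pass the test. It was at 143.1 and 102.5 FPKM with DMSO and at 101.8 and 91.3 with IWP2, and the lower DMSO library stood close to the upper IWP2 library (log2 change -0.33, SE 0.17, adjusted p = 0.28 with limma). MMP9, the other gelatinase, was at 5.89 and 4.62 FPKM against 4.88 and 4.46, with groups that overlapped. The ratio of the FPKM of MMP14 to that of MMP2, a comparison chosen after the values were seen, was 1.28 and 1.61 in the DMSO libraries and 0.855 and 0.907 in the IWP2 libraries. MMP2 thus replaced MMP14 as the most abundant member in both IWP2 libraries.

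All 6 membrane-type MMPs reached the minimum, and they did not move as a group. MMP15, a transmembrane enzyme like MMP14, was at 49.5 and 37.3 FPKM with DMSO and 31.6 and 30.1 with IWP2 (log2 change -0.47, SE 0.15, adjusted p = 0.10 with limma, and 0.034 without DMSO replicate 2). MMP17, which is held at the membrane by a GPI anchor, rose. Its level was 11.1 and 9.47 FPKM with DMSO and 17.7 and 19.2 with IWP2, a log2 change of 0.79 (SE 0.12, adjusted p = 0.014 with limma). MMP24, a transmembrane enzyme known from neural tissue that can cut N-cadherin, also rose. It went from 1.12 and 0.536 FPKM to 3.26 and 3.53, a 4.09-fold ratio of the group means and a log2 change of 1.28 (SE 0.22, adjusted p = 0.02 with limma). Neither gene kept its call without an IWP2 library, as the adjusted p was 0.11 and 0.13 for MMP17 and 0.14 and 0.14 for MMP24 without IWP2 replicate 1 and 2, respectively. MMP25, the other GPI-anchored enzyme, was at 3.02 and 3.03 FPKM against 4.39 and 3.55, and MMP16 was at 1.34 and 1.49 against 3.17 and 1.65, and neither passed. For MMP24, 18.1% of the exon bases are shared with MMP24OS on the opposite strand, which was at 13.5 and 15.9 FPKM with DMSO and 18.2 and 19.9 with IWP2. The library kit as named in the labels does not mark strand, so reads from that overlap cannot be assigned to a gene by strand. Among other tested members, shared exon bases came to 35.2% for MMP25 (with MMP25-AS1), 18.4% for MMP9 (SLC12A5-AS1), 17.4% for MMP19 (TMEM198B), 12.3% for ADAM17 (IAH1) and 6.5% for TIMP2 (AC022966.1). MMP11 shares 4.2% with CHCHD10 on the opposite strand, which was at 58.8 and 59.7 FPKM with DMSO and 31.8 and 49.4 with IWP2.

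MMP23B, an MMP anchored by its amino-terminal end and without the hemopexin domain of most MMPs, had the largest ratio of group means among the tested MMPs. It was at 0.876 and 0.884 FPKM with DMSO and at 4.44 and 4.16 with IWP2, a 4.89-fold ratio of means (log2 change 1.495, SE 0.16, adjusted p = 0.0048 with limma). The adjusted p was 0.072 without IWP2 replicate 1 and 0.062 without IWP2 replicate 2. MMP23A, the near-identical pseudogene 64.7 kb away on chromosome 1, was listed at 0, 0.197, 0.0521 and 0 FPKM, and how the counting split reads between the copies is not known. Of the secreted enzymes, MMP11 was at 1.80 and 1.67 FPKM against 1.074 and 0.712, and MMP19 was at 0.932 and 0.674 against 1.34 and 1.20. Both had groups that did not overlap, as in 59.8% of all genes tested, and neither passed (adjusted p = 0.14 and 0.33 with limma).

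The MMP genes clustered on chromosome 11 were nearly silent, unlike the secreted gelatinases MMP2 and MMP9 described above. The 9 listed MMP genes between 102520508 and 102955734 on chromosome 11 (MMP7, MMP20, MMP27, MMP8, MMP10, MMP1, MMP3, MMP12 and MMP13), which include all 3 collagenases, reached at most 0.108 FPKM in any library, and 4 of them were at 0 in all libraries. None of 20 widely used genes such as ACTB and TBP was at 0 in any library.

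**Figure D2:**
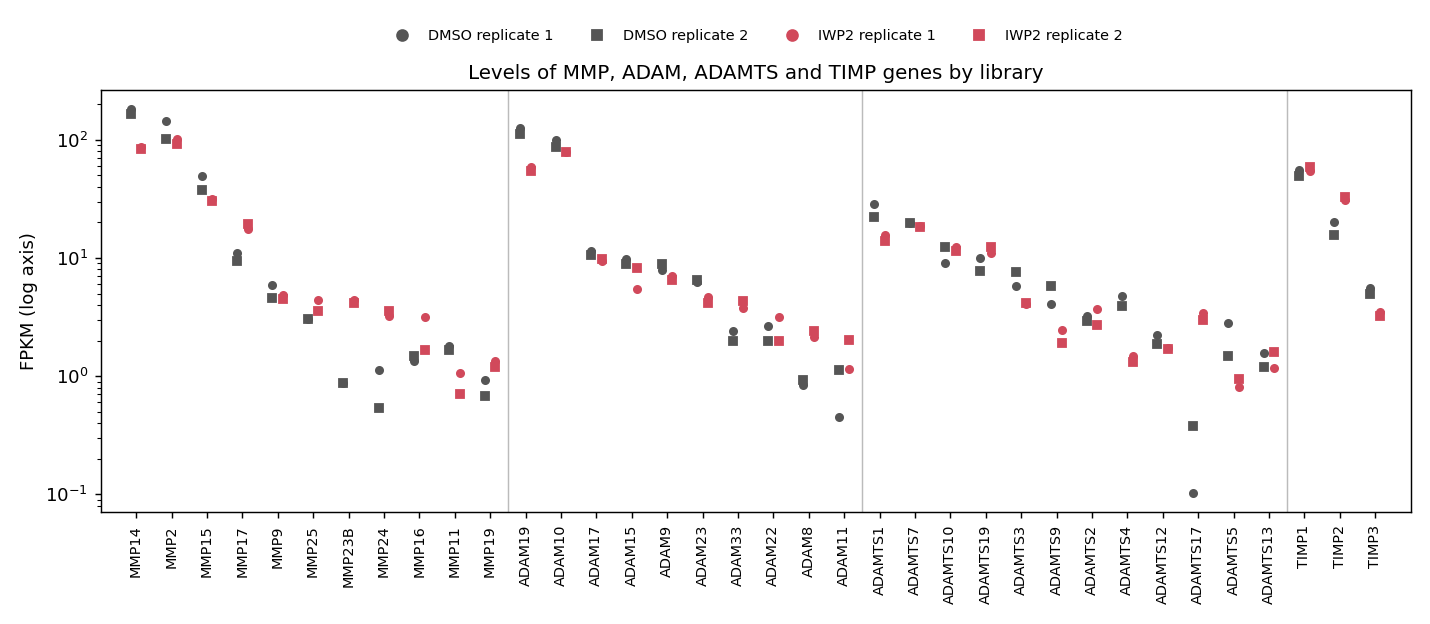
Each column is 1 of the 36 tested genes, ordered by family (separated by grey lines) and by mean level, and the vertical axis is FPKM on a log scale. Grey points are the DMSO libraries and red points the IWP2 libraries, with circles for replicate 1 and squares for replicate 2. MMP14 and ADAM19 stand out at the upper end, where both red points lie near 85 and 57 FPKM under grey points above 110.

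In the ADAM family, 10 of 26 genes were tested, and ADAM19 and ADAM8 passed the test. ADAM19, a sheddase known for its part in heart valve development and for cutting neuregulins, was at 126.2 and 111.9 FPKM with DMSO and at 58.6 and 54.8 with IWP2. The IWP2 libraries thus lay far below the DMSO libraries and close to each other, with a log2 change of -1.06 (SE 0.10, adjusted p = 0.0035 with limma). The adjusted p was 0.054 without IWP2 replicate 1 and at most 0.0499 without any other library. The gene lies at chr5:157395534-157575775 (GRCh38) on the minus strand. It shares 62 exon bases (0.8%) with CYFIP2 on the opposite strand, which was at 8.71 and 8.38 FPKM with DMSO and 23.9 and 26.3 with IWP2. ADAM8, a protease best known from leukocytes, rose from 0.85 and 0.929 to 2.14 and 2.42 FPKM (log2 change 0.80, SE 0.17, adjusted p = 0.04 with limma). Its call was lost without any single library, at adjusted p between 0.085 and 0.22.

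The general sheddases changed little. ADAM10, which cuts Notch and N-cadherin, was at 100.2 and 87.3 FPKM with DMSO and was listed at 78.7 FPKM in both IWP2 libraries, with the same digits, as was 1 other row of at least 1 FPKM in the table (log2 change -0.25, SE 0.10, adjusted p = 0.16 with limma). ADAM17, which releases TNF and ligands of the EGF receptor, was at 11.4 and 10.5 FPKM against 9.40 and 9.78. ADAM9 was at 7.90 and 8.86 against 6.99 and 6.57, and ADAM15 was at 9.75 and 8.90 against 5.44 and 8.27. In all 4 of these genes each IWP2 library was below each DMSO library, as in 31.9% of all genes tested, and none passed the test. ADAM19 made up 46.8% and 46.4% of the summed ADAM FPKM in the DMSO libraries and 33.5% and 31.5% in the IWP2 libraries, and ADAM10 became the larger with 45.1% and 45.3%.

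ADAM23, ADAM22 and ADAM11 are known mainly from neural tissue and lack a working catalytic site. ADAM23 was at 6.22 and 6.48 FPKM with DMSO and 4.69 and 4.20 with IWP2 (adjusted p = 0.084 with limma). ADAM22 was at 2.67 and 1.99 against 3.14 and 1.99, and ADAM11 was at 0.454 and 1.12 against 1.14 and 2.03, so that the groups overlapped in ADAM22 and were only narrowly apart in ADAM11. ADAM33, a protease with a catalytic site that is studied in the airway, was at 2.42 and 1.97 against 3.76 and 4.30 (log2 change 0.66, SE 0.16, adjusted p = 0.054 with limma), and it passed with quantile normalization, with median centring and without the mean-variance trend, and under no other alternative that tested it. Next to ADAM9 on chromosome 8, the 5 genes ADAM32, ADAM5, ADAM3A, ADAM18 and ADAM2, several of which are known from the testis, stayed at or below 0.168 FPKM.

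The ADAMTS genes that cut versican and aggrecan (the hyalectanases) held 3 of the 5 calls in the lower direction among all tested members. Of 7 such genes 4 were tested, and ADAMTS1, ADAMTS4 and ADAMTS9 fell. Over all genes tested, 8.44% were called lower. ADAMTS4 was at 4.78 and 3.90 FPKM with DMSO and at 1.47 and 1.32 with IWP2, a mean 3.11-fold higher with DMSO (log2 change -1.15, SE 0.17, adjusted p = 0.012 with limma). ADAMTS1, the most abundant of the family in the DMSO libraries, went from 28.8 and 22.1 to 15.7 and 14.02 FPKM (log2 change -0.73, SE 0.15, adjusted p = 0.034 with limma). ADAMTS9 went from 4.08 and 5.75 to 2.44 and 1.91 FPKM (log2 change -0.89, SE 0.20, adjusted p = 0.042 with limma). These calls depended on single libraries. ADAMTS4 and ADAMTS1 were lost without DMSO replicate 1 (adjusted p = 0.052 and 0.089), IWP2 replicate 1 (0.0997 and 0.16) or IWP2 replicate 2 (0.10 and 0.20), and ADAMTS9 was lost without any of the 4 (0.054 to 0.22).

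ADAMTS5, the neighbour of ADAMTS1 at a distance of 72.5 kb on chromosome 21, was at 2.84 and 1.47 FPKM with DMSO and 0.81 and 0.945 with IWP2. Its IWP2 values were the lower ones, but the DMSO libraries had an SD of 0.968 FPKM and the test was not passed (log2 change -0.72, SE 0.26, adjusted p = 0.14 with limma). ADAMTS15, below the minimum for testing, was at 1.57 and 1.19 FPKM against 0.614 and 0.515. ADAMTS8, which lies 19980 bases from ADAMTS15 on chromosome 11, had the opposite order with 0.174 and 0.182 FPKM against 0.76 and 0.879, also untested. Summed over all 7 hyalectanases, the level was 42.6 and 35.3 FPKM with DMSO and 22.2 and 19.9 FPKM with IWP2.

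The largest change among all tested members was that of ADAMTS17, a protease linked to fibrillin microfibrils and to short stature with lens defects. It was at 0.103 and 0.38 FPKM in the DMSO libraries and at 3.41 and 2.99 FPKM in the IWP2 libraries, a 13.3-fold ratio of means and a log2 change of 1.77 (SE 0.21, adjusted p = 0.0069 with limma). The DMSO values were low, with an SD of 0.196 FPKM, and the adjusted p was 0.084 and 0.070 without IWP2 replicate 1 and 2. An antisense transcript, AC084855.1, overlaps 5.2% of the exon bases of ADAMTS17 and was at 0 in both DMSO libraries and at 0.252 and 0.456 FPKM in the IWP2 libraries. ADAMTS19, an orphan protease of the same subgroup, was at 9.998 and 7.80 FPKM against 11.1 and 12.3 (adjusted p = 0.17 with limma).

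The other ADAMTS genes did not pass. ADAMTS3, which removes the amino-terminal propeptide of procollagens and processes VEGFC, was at 5.78 and 7.54 FPKM against 4.08 and 4.16 (log2 change -0.57, SE 0.16, adjusted p = 0.074 with limma), and ADAMTS2, with a related role, was at 3.23 and 2.95 against 3.72 and 2.69. ADAMTS7, which cuts the cartilage protein COMP, was the second most abundant member of the family with DMSO at 19.6 and 19.7 FPKM and held 18.8 and 18.4 with IWP2 (log2 change -0.07, SE 0.09). ADAMTS12 was at 2.21 and 1.88 against 1.75 and 1.69, and ADAMTS10, which acts on fibrillin, was at 9.08 and 12.3 against 12.3 and 11.5. ADAMTS13, the protease of von Willebrand factor, was at 1.58 and 1.20 against 1.16 and 1.61, with groups that overlapped.

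Among the inhibitors, TIMP2 rose and TIMP1 did not pass the test. TIMP2 was at 20.1 and 15.7 FPKM with DMSO and at 31.2 and 32.9 FPKM with IWP2, a log2 change of 0.82 (SE 0.14, adjusted p = 0.019 with limma). The adjusted p was 0.14 without either IWP2 library. TIMP1, the most abundant inhibitor, was at 55.7 and 49.3 FPKM against 54.6 and 58.9, with groups that overlapped (log2 change 0.11, SE 0.10, adjusted p = 0.51 with limma). TIMP3, which binds to the matrix and also inhibits ADAM17 and the aggrecan-cutting ADAMTS enzymes, was at 5.63 and 4.99 FPKM against 3.52 and 3.22 (log2 change -0.53, SE 0.14, adjusted p = 0.063 with limma). TIMP4 was under the minimum and was at 0.313 and 0.177 FPKM against 0.711 and 0.794. TIMP4 shares 170 exon bases (10.3%) with SYN2 on the opposite strand, which was at 2.14 and 2.00 FPKM with DMSO and 2.36 and 2.53 with IWP2.

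The changes of MMP14 and TIMP2 ran in opposite directions. The ratio of the FPKM of MMP14 to that of TIMP2, chosen after the values were seen and given without a test, was 9.06 and 10.5 in the DMSO libraries and 2.79 and 2.51 in the IWP2 libraries. These are RNA levels per length, and no protein or activity was measured here.

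The summed levels of the families are weighted by their most abundant genes. They do not show that each protease family had calls in both directions. The MMP genes summed to 401 and 327 FPKM with DMSO and 261 and 243 with IWP2, and the ADAM genes to 269.8 and 241 against 174.6 and 173.9. The ADAMTS genes summed to 96.0 and 90.7 against 81.0 and 77.7, a smaller difference, while the TIMP genes summed to 81.8 and 70.1 against 90.1 and 95.9. MMP14, MMP2 and MMP15 together held 93.5% and 93.1% of the MMP sum with DMSO and 84.5% and 84.1% with IWP2. With 2 libraries against 2, the smallest two-sided p that an exact permutation test can give is 0.33, and the sums are given without a test.

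**Figure D3:**
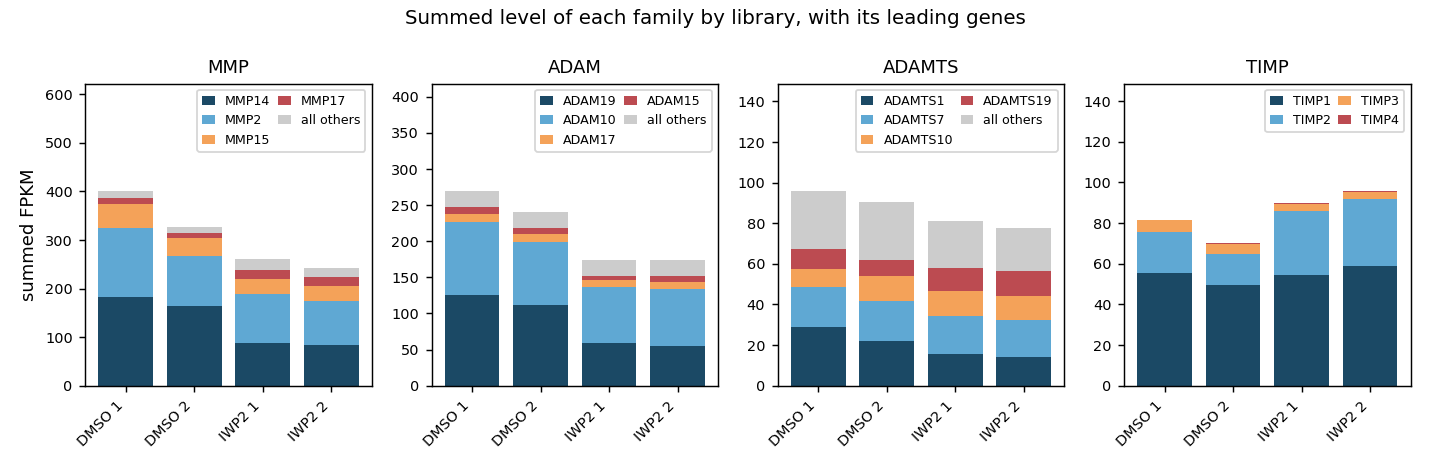
Bars give the summed FPKM of each family in each library, from 0, with the 4 leading genes coloured and the rest in grey, and each panel has its own vertical scale. The MMP and ADAM bars of the IWP2 libraries are lower, with smaller segments of MMP14 (dark blue, 87.0 and 82.8 FPKM) and ADAM19 (dark blue, 58.6 and 54.8 FPKM), whereas the TIMP bars are higher, with larger segments of TIMP2 (light blue, 31.2 and 32.9 FPKM).

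The remaining 37 members had a mean under 1 FPKM, and 11 of them were at 0 in all libraries. Of the 37, 29 stayed under 0.5 FPKM in every library and 8 reached it in at least 1 library. Beside ADAMTS15, ADAMTS8 and TIMP4, those whose groups did not overlap and whose higher mean was at least 0.5 FPKM were ADAMTS6 (0.643 and 0.837 FPKM with DMSO, 0.974 and 1.04 with IWP2), ADAMTS18 (0.785 and 0.416 against 0.796 and 0.822) and ADAM28 (0.786 and 0.421 against 0 and 0.29). In a transcript of a given length, lower values rest on fewer fragments. In a transcript of 1 kb, 1 fragment was worth about 0.0469 to 0.0582 FPKM.

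Genes that activate, move, inhibit or supply substrates to these proteases were read from the same fit. Of 45 such genes 27 were tested, and 3 were called higher and 7 lower. Over all genes tested, 6.75% were called higher and 8.44% lower. RECK, a membrane-anchored inhibitor of MMP14, MMP2 and MMP9, fell from 5.66 and 6.65 to 3.66 and 3.28 FPKM (adjusted p = 0.035 with limma), and ADAMTSL4, a catalytically inactive relative of the ADAMTS proteins, rose from 1.70 and 1.248 to 4.09 and 4.69 (adjusted p = 0.015). Of 8 tested partners that guide ADAM10 or ADAM17 through the cell, 3 fell. These were TSPAN5 (4.96 and 6.02 against 2.60 and 2.44 FPKM), FRMD8 (23.0 and 20.7 against 11.02 and 14.6) and TSPAN14 (54.9 and 50.2 against 34.7 and 33.4).

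SERPINE2, a secreted inhibitor of serine proteases, fell from 585 and 873 to 195 and 239 FPKM (log2 change -1.72, SE 0.21, adjusted p = 0.0079 with limma). Of the EGF-family ligands that ADAMs release, EGF fell from 12.6 and 9.43 to 3.03 and 3.41 FPKM and NRG1, a substrate of ADAM19, fell from 5.19 and 5.54 to 3.14 and 1.99 (adjusted p = 0.0062 and 0.046 with limma). FURIN, the convertase that removes the inhibitory propeptide of membrane-type MMPs and ADAMs, rose from 41.9 and 36.6 to 57.3 and 54.7 FPKM (adjusted p = 0.03 with limma). FURIN and TSPAN14 were named after their values were seen.

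**Figure D4:**
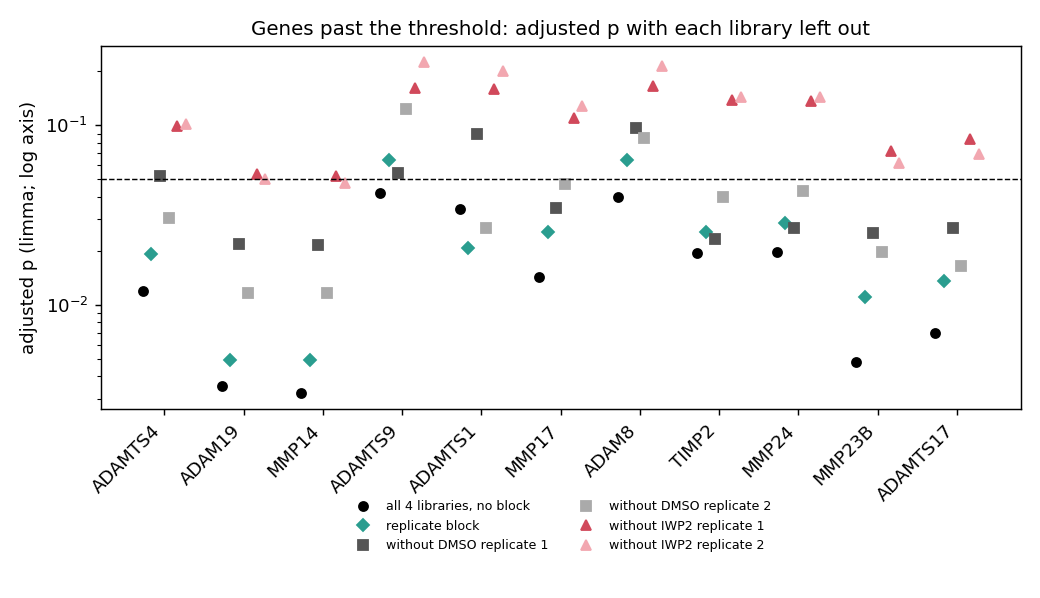
For the 11 called genes, the vertical axis (log scale) gives the adjusted p from limma with all 4 libraries (black), with the replicate number as a block (green) and with each library left out (grey squares for DMSO, red triangles for IWP2, darker for replicate 1), and the dashed line is at 0.05. Leaving out an IWP2 library moved the values most: MMP14 reached 0.052 and ADAM19 0.054 without IWP2 replicate 1, and the other 9 genes lay above the line without either IWP2 library.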

How the data were processed

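The table gave 1 FPKM value per gene and library, made by the authors before deposit. The submitters' processing notes name BWA, Bowtie and RSEM and the build hg19, with no roles or versions, whereas the row coordinates of the deposited FPKM table matched GENCODE release 29 (GRCh38) gene models for 97.3% of the shared genes and for 72 of 73 members, so GRCh38 positions are given. The header names no unit. Low values multiplied by transcript length fell on steps, as FPKM do, and these steps correspond to about 17200000 to 21300000 fragments per library, with 13831 to 13926 genes at 1 FPKM or more. The columns marked with a minus sign before IWP2 were taken as the DMSO group and numbered as in their names. Counts were not analysed here.

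Genes with a mean of at least 1 FPKM over the 4 libraries were tested with limma 3.58.1 (R 4.3.3, mean-variance trend) on log2(FPKM + 1), IWP2 against DMSO, without covariates, with Benjamini-Hochberg adjustment over all genes and a two-sided threshold of 0.05. The pseudocount makes fold changes of low genes smaller than their FPKM ratios. The code was tested on simulated data with known changes. Members and lists were chosen with earlier results of these data known. Members at 1 FPKM or more were all named, with values per library for the called ones, the 10 most abundant and the TIMPs. Untested members were named where the groups did not overlap and the higher mean was at least 0.5 FPKM. Related genes and markers were named by size of change among those called, at most 8 each, except FURIN, TSPAN14, SOX17 and the called markers of other cell types. A result that this rule would name is not reported here. Of 14 alternatives, 4 left out a library, 1 added a replicate block, and the others changed the pseudocount (0.1, 0.5), the filter (none, 0.5, 5), the scaling (equal library totals, quantile, median) or the trend. Motif and overlap scans used RefSeq windows and GENCODE exons.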

Additional observations from a re-analysis of the deposited data

How the results depend on the processing

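The direction of all 11 called genes was the same under every alternative that tested them. Without a filter on low values, 28917 genes were tested, and limma called 118 genes higher and 263 lower, with 0 members higher (6 in the main analysis) and 1 lower (MMP14). With a mean of at least 5 FPKM, 17 members were tested, and 2 were higher and 3 lower. With 1 library left out, members called higher ranged from 0 to 5 and members called lower from 0 to 5, and genes called over the whole table ranged from 91 to 656 higher and from 227 to 810 lower. The lone library left in a group is then assumed to vary like the others. Quantile normalization and median centring each lost ADAMTS9 and gained ADAM33, and without the trend ADAMTS1 was lost and ADAM33 and TIMP3 were gained. The median log2 change of all genes lay between -0.04 and 0.05 under these scalings. The log2 ratio of the summed ADAM level was -0.55 and ranged from -0.63 to -0.47 with 1 library left out. Small changes that were not called turned sign: ADAM22 (0.08) was -0.0633 without DMSO replicate 2 and ranged from -0.151 to 0.32 with 1 library left out, ADAMTS10 from -0.046 to 0.36, ADAMTS2 from -0.149 to 0.21, MMP9 from -0.28 to 0.0115, and ADAMTS13 from -0.14 to 0.133 (0.0624 under median centring). The cause was not tested.

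With the replicate number as a replicate block, limma called 5 members higher and 4 lower, losing ADAM8 and ADAMTS9, and 862 genes higher and 1065 lower over the whole table. The deviations of same-numbered libraries correlated at 0.15 over 2 pairs, and the labels name no shared batch, so the numbers were not taken as pairs. No depth per gene is known from FPKM alone, which limits statements on genes under 1 FPKM.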
